A study of Mus musculus with 21 samples.

Results

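Fgf5, Otx2, Pou3f1, Zic2, Zic5, Sox3, Wnt8a, Tcf15, Grhl2 and Sall2 were followed as genes of the formative and primed epiblast, in mouse cells that lacked or carried Cxxc5 (also named Rinf). The 10 genes were chosen by name, from their known use in the epiblast and with earlier results of these data known. They were 10 of the 24458 genes in the table of embryoid body RNA. Embryoid bodies are hanging-drop aggregates in which embryonic stem cells leave pluripotency and form early lineages. Rinf knockout and wild type V6.5 stem cells, of mixed 129/C57BL/6 strain and at passages 15-18, had been kept on gelatin in serum with LIF, the cytokine that holds them undifferentiated. RNA was sequenced at days 0, 3 and 6, with 2 libraries of each genotype on each day and 12 libraries in all. The libraries of a genotype came from 2 independent stem cell lines, so line and genotype are separated only as far as 2 lines allow. The labels state neither the medium of the embryoid bodies nor the deleted part of Cxxc5. A separate table of undifferentiated stem cells carried 3 entries for the knockout and 3 for the wild type.

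In the mouse embryo, cells of the inner cell mass hold a naive state that is lost after implantation, when the epiblast becomes a formative and then a primed epithelium able to enter the germ layers. Stem cells released from LIF pass through the same order, shutting down naive factors such as Klf4 and switching on Fgf5 and Otx2. Otx2 and Pou3f1 are among the transcription factors that redirect shared pluripotency factors to new enhancers in that step, and Grhl2 opens enhancers of epithelial genes. CXXC5 carries a zinc finger of the CXXC type, a domain that binds unmethylated CG dinucleotides.

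Markers and the deleted gene were checked against the labels. Cells labelled stem cells carried their markers at day 0: Pou5f1 stood at 396.1 and 411.6 FPKM (read fragments per transcript length and library size) in knockout and 356.7 and 429.2 FPKM in wild type libraries, and the naive gene Zfp42 at 216.2 and 219.7 FPKM in knockout and 239.0 and 278.9 FPKM in wild type. Cxxc5 itself stood at 6.87 and 8.64 FPKM in knockout libraries of day 0, against 31.4 and 25.1 FPKM in wild type libraries, and was 0.181 to 0.275 times the wild type mean over the 3 days. Estimated depth ran from 16.6 to 36 M reads per library, and 11664 to 12287 genes reached 1 FPKM. The Y-linked gene Eif2s3y also differed, at a mean of 1.94 ± 0.760 FPKM in knockout and 16.2 ± 5.90 FPKM in wild type libraries at day 6 (SD, n = 2 each), and its part in any result was not tested. Replicates lay far apart at day 6. Over the 10 genes, the median ratio between the higher and the lower replicate was 1.82 in knockout and 1.81 in wild type libraries at day 6, compared with 1.14 and 1.06 at day 3 in the same genotypes. Permuting 2 libraries against 2 exactly (two-sided) gives no p below 0.333, so each adjusted p comes from limma fitted to all 12472 genes with a mean of at least 1 FPKM, with Benjamini-Hochberg adjustment and a threshold of 0.05. All 10 genes passed that minimum. Log2 fold changes were computed from log2(FPKM + 1) and so are too small for genes with low values.

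The genes are spread over the genome, and 4 of them are on chromosome 14. Wnt8a, whose coordinates are not given here, is on the same chromosome as the deleted gene Cxxc5. Whether that shared chromosome has a part in the Wnt8a values was not tested. On mm10, by the RefSeq annotation of GRCm38, Fgf5 lies at chr5:98254184-98277033, Otx2 at chr14:48656781-48667644, Sall2 at chr14:52311177-52328670 and Grhl2 at chr15:37232821-37363569. Pou3f1 lies at chr4:124657646-124660655, Tcf15 at chr2:152143056-152149097 and Sox3 at chrX:60891366-60893430. Zic5 (chr14:122459160-122465658) and Zic2 (chr14:122475384-122480328) are neighbours 9726 bases apart. Grhl2 overlaps the annotated gene Gm16136. The labels do not say whether counting used strand, so reads in the shared bases cannot be told apart.

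Promoters of Fgf5, Otx2 and Sall2 are shown because Fgf5 and Sall2 had the largest rises to day 3 on the log2(FPKM + 1) scale, and Otx2 the largest genotype difference in time course that passed the test, and because CG dinucleotides, in capitals, are the sequence that a CXXC finger reads. Each is the RefSeq window of GRCm38.p6 from 250 bases before to 50 bases after the gene's start, read 5′ to 3′ on the gene's strand. The windows are chr5:98253934-98254233 (plus strand), chr14:48667595-48667894 (minus strand) and chr14:52328621-52328920 (minus strand).
Fgf5: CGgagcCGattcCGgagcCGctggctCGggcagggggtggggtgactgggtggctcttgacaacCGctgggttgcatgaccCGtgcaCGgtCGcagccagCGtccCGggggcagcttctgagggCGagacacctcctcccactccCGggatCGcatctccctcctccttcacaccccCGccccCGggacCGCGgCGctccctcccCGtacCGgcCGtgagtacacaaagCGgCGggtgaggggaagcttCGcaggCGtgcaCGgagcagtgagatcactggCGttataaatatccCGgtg
Otx2: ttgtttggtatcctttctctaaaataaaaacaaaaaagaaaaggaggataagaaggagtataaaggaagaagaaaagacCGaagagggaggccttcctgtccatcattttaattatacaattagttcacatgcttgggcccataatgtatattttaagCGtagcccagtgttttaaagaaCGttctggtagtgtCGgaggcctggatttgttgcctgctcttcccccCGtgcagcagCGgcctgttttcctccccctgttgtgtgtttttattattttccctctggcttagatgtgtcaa
Sall2: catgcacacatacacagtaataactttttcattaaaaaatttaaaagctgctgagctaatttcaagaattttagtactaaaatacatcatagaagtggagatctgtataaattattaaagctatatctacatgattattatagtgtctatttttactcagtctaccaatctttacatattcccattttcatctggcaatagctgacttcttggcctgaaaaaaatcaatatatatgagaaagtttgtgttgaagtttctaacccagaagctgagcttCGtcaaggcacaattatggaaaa
The 3 windows hold very unlike numbers of CG. Fgf5 had 29 CG, at percentile 87.1 of 32851 such windows, whose median was 7. Otx2 had 6 and Sall2 had 1, at percentiles 43.6 and 5.43, and starts elsewhere in RefSeq had 11, 16 and 8 for Otx2 and 10 for Sall2. Zic5, the fourth gene with a window, had 15 CG at percentile 65.4. The octamer ATGCAAAT, the site read by POU factors such as Pou3f1, was in 1.74% of all windows on either strand and in none of the windows of these 4 genes. The bicoid-type site TAATCC, which OTX2 binds, was in 7.06% of all windows and in 1 window of these genes, at another Otx2 start (chr14:48665060-48665359). Both are matches of letters only.

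**Figure D1:**
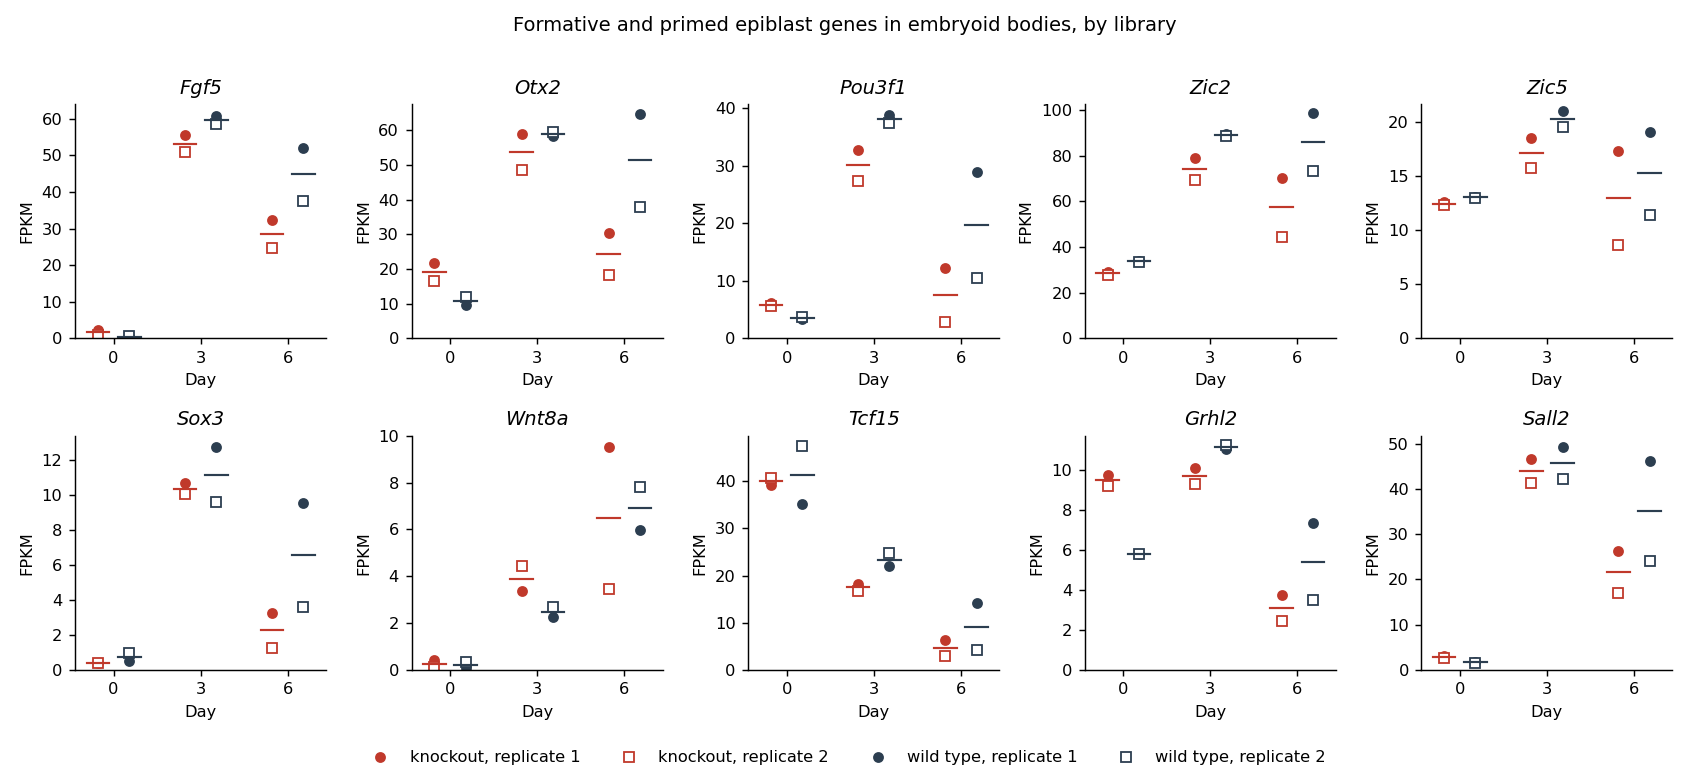
FPKM of each of the 10 genes in every embryoid body library by day (knockout red and left, wild type dark and right, replicate 1 filled circles, replicate 2 open squares, short lines group means). Fgf5 and Sall2 were near 0 at day 0 and above 40 FPKM in all 4 libraries of day 3, and the replicates of day 6 lie far apart.

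From day 0 to day 3 most of the 10 genes were switched on or raised. Between those days 7 genes rose in knockout and 8 in wild type embryoid bodies, and none fell. Over all genes tested, 52.6% changed in knockout (24.6% rose and 28.0% fell) and 55.7% in wild type (25.5% rose and 30.2% fell). The median log2 fold change of the 10 genes was 1.70 in knockout and 1.94 in wild type, beside a median over all genes of -0.02 in each. In bulk RNA, more cells of a type and more RNA per cell cannot be told apart.

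Fgf5 encodes a secreted fibroblast growth factor that marks the epiblast after implantation. Knockout Fgf5 values were 2.30 and 0.902 FPKM at day 0, 55.6 and 50.9 FPKM at day 3, and 32.4 and 24.7 FPKM at day 6, with replicate 1 given before replicate 2 here and below. Wild type Fgf5 values were 0.276 and 0.619, then 60.9 and 58.7, then 52.1 and 37.7 FPKM on the same days. Every library of day 3 thus lay far above every library of day 0, and at day 6 each knockout library was below each wild type library. The rise to day 3 had a log2 fold change of 4.44 (SE 0.26, limma adjusted p = 7.09e-06) in knockout and 5.40 (SE 0.26, adjusted p = 2.07e-06) in wild type.

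Wnt8a, the other secreted signal, is a Wnt ligand of the posterior epiblast and primitive streak. Knockout Wnt8a values were 0.410 and 0.121 FPKM at day 0, 3.36 and 4.44 FPKM at day 3, and 9.53 and 3.47 FPKM at day 6. Wild type Wnt8a values were 0.0964 and 0.331, then 2.26 and 2.68, then 5.99 and 7.81 FPKM. By group mean it was the lowest of the 10 genes at days 0 and 3, and the values of day 0 rest on an estimated 3.5 to 15.2 reads per library. It rose to day 3 by a log2 fold change of 1.95 (SE 0.35, limma adjusted p = 0.00167) in knockout and 1.52 (SE 0.35, adjusted p = 0.00549) in wild type.

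Otx2 is a homeodomain factor of the formative epiblast and later of the forebrain. Knockout Otx2 values were 21.8 and 16.6 FPKM at day 0, 58.9 and 48.5 FPKM at day 3, and 30.3 and 18.4 FPKM at day 6. Wild type Otx2 values were 9.68 and 11.9, then 58.3 and 59.5, then 64.7 and 38.0 FPKM. The knockout libraries were the higher ones at day 0 and the lower ones at day 6, with no overlap on either day, and overlapped the wild type at day 3. The log2 fold change to day 3 was 1.44 (SE 0.28, limma adjusted p = 0.00274) in knockout and 2.35 (SE 0.28, adjusted p = 0.000171) in wild type.

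Pou3f1 encodes a POU factor, also named Oct6, that promotes exit from the naive state and neural fate. Knockout Pou3f1 values were 6.09 and 5.54 FPKM at day 0, 32.8 and 27.3 FPKM at day 3, and 12.1 and 2.90 FPKM at day 6. Wild type Pou3f1 values were 3.35 and 3.69, then 38.8 and 37.5, then 28.9 and 10.4 FPKM. The genotypes did not overlap at days 0 and 3, in opposite directions, and overlapped at day 6. The gene rose to day 3 by 2.18 in knockout (SE 0.55, limma adjusted p = 0.00952) and by 3.12 in wild type (SE 0.55, adjusted p = 0.00138) on the log2 scale.

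Sall2 is a spalt-type zinc finger factor, a relative of the pluripotency factor Sall4. Knockout Sall2 values were 3.05 and 2.62 FPKM at day 0, 46.8 and 41.3 FPKM at day 3, and 26.3 and 17.0 FPKM at day 6. Wild type Sall2 values were 1.69 and 1.59, then 49.4 and 42.2, then 46.2 and 24.0 FPKM. Its order of days was that of Fgf5, with the genotypes separate at day 0 and overlapping at days 3 and 6. The rise to day 3 was 3.55 in knockout (SE 0.28, limma adjusted p = 2.66e-05) and 4.15 in wild type (SE 0.28, adjusted p = 8.55e-06) on the log2 scale.

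Sox3, an X-linked SoxB1 factor closely related to Sox2, marks epiblast and neural progenitors. Knockout Sox3 values were 0.379 and 0.400 FPKM at day 0, 10.7 and 10.05 FPKM at day 3, and 3.25 and 1.27 FPKM at day 6. Wild type Sox3 values were 0.4996 and 0.955, then 12.8 and 9.59, then 9.53 and 3.57 FPKM. Knockout libraries lay below wild type libraries at days 0 and 6 and between them at day 3. The rise to day 3 was 3.03 in knockout (SE 0.39, limma adjusted p = 0.000325) and 2.82 in wild type (SE 0.39, adjusted p = 0.000395) on the log2 scale.

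Zic2 and its neighbour Zic5 encode zinc finger factors of epiblast and neural tissue. Knockout Zic2 values were 29.2 and 27.8 FPKM at day 0, 79.2 and 69.4 FPKM at day 3, and 70.3 and 44.5 FPKM at day 6. Wild type Zic2 values were 33.9 and 33.6, then 89.7 and 88.5, then 99.0 and 73.2 FPKM. On every day both knockout libraries were below both wild type libraries. Zic2 rose to day 3 by 1.35 in knockout (SE 0.20, limma adjusted p = 0.000638) and 1.37 in wild type (SE 0.20, adjusted p = 0.00048) on the log2 scale. Zic5 varied much less than its neighbour. Knockout Zic5 values were 12.6 and 12.3 FPKM at day 0, 18.5 and 15.7 FPKM at day 3, and 17.3 and 8.64 FPKM at day 6. Wild type Zic5 values were 13.1 and 12.99, then 21.0 and 19.6, then 19.1 and 11.4 FPKM. All 4 libraries of day 3 exceeded all 4 of day 0, with log2 fold changes of 0.42 in knockout (SE 0.29, limma adjusted p = 0.249) and 0.60 in wild type (SE 0.29, adjusted p = 0.109) that did not pass.

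Tcf15, a helix-loop-helix factor that primes stem cells for differentiation and is later known as a regulator of paraxial mesoderm, ran the other way. Knockout Tcf15 values were 39.2 and 40.7 FPKM at day 0, 18.3 and 16.7 FPKM at day 3, and 6.23 and 2.97 FPKM at day 6. Wild type Tcf15 values were 35.1 and 47.4, then 22.0 and 24.7, then 14.1 and 4.11 FPKM. The gene was lower on each later day in every library of a genotype. The step to day 3 did not pass in the fit to all 12 libraries, at -1.15 in knockout (SE 0.45, limma adjusted p = 0.0586) and -0.78 in wild type (SE 0.45, adjusted p = 0.17). With the libraries of day 6 left out, an alternative chosen after the data were seen, Tcf15 passed in knockout (adjusted p = 0.000706) and wild type (adjusted p = 0.00321), as did Zic5 (adjusted p = 0.00459 in knockout and 0.000968 in wild type).

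Grhl2, the grainyhead factor of epithelial enhancers, was the gene whose step to day 3 passed in 1 genotype alone. Knockout Grhl2 values were 9.76 and 9.19 FPKM at day 0, 10.1 and 9.30 FPKM at day 3, and 3.76 and 2.46 FPKM at day 6. Wild type Grhl2 values were 5.79 and 5.80, then 11.05 and 11.2, then 7.32 and 3.48 FPKM. Knockout libraries thus already held at day 0 nearly the level they had at day 3, and lay well above the wild type at day 0. The log2 fold change to day 3 was 0.03 in knockout (SE 0.25, limma adjusted p = 0.938) and 0.84 in wild type (SE 0.25, adjusted p = 0.0195). The wild type call was lost when any 1 of its 4 libraries of those days was left out, at adjusted p from 0.0728 to 0.079.

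**Figure D2:**
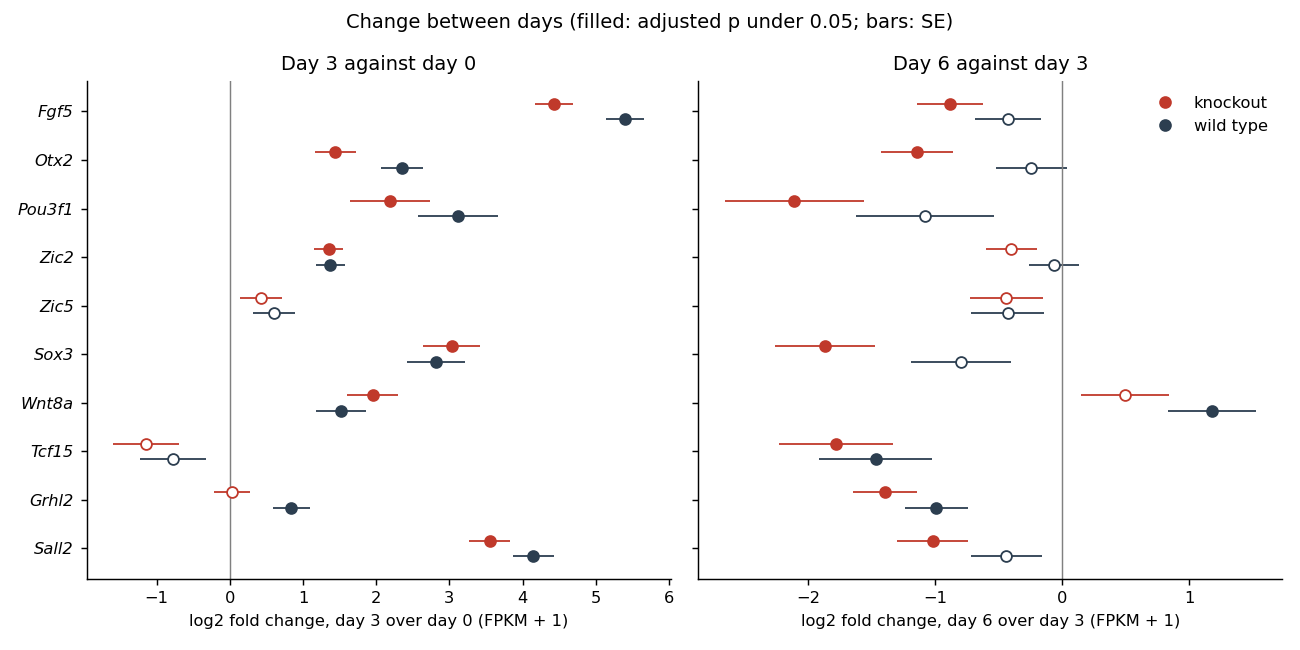
Log2 fold change, on the log2(FPKM + 1) scale, of each gene from day 0 to day 3 (left panel) and from day 3 to day 6 (right panel), in knockout (red, upper point) and wild type (dark, lower point). Bars are the SE from limma and filled points have an adjusted p under 0.05; 7 genes rose in knockout in the left panel, and 7 fell in knockout in the right panel.

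Whether the step to day 3 differed between genotypes was tested by the interaction. Passing interactions numbered 0 of 10 for this step, beside 0.0401% of all genes, and 3 of the 10 had an unadjusted p under 0.05, beside 7.67% of all genes. These were Fgf5 at -0.97 (SE 0.37), Otx2 at -0.91 (SE 0.40) and Grhl2 at -0.81 (SE 0.35), each a smaller step in knockout, with limma adjusted p of 0.585, 0.651 and 0.651. The median interaction was -0.48 over the 10 genes and 0.00 over all genes.

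Other genes of the same transition are set beside the 52.6% of all genes called in knockout and the 55.7% in wild type. Of 17 tested genes in a further list of formative and primed genes, 13 rose and 2 fell in knockout between days 0 and 3, and 12 rose and 1 fell in wild type. Fgf8, a fibroblast growth factor of the epiblast and streak, had log2 fold changes of 3.60 in knockout and 3.62 in wild type. Pim2, a serine/threonine kinase, stood at 3.39 and 3.95 in the same genotypes, and Dnmt3b, the de novo DNA methyltransferase of the epiblast, at 1.61 and 2.32. Of 13 naive genes, 11 fell in knockout and 13 in wild type. Klf4, a naive transcription factor, had log2 fold changes of -4.67 in knockout and -4.58 in wild type, the largest falls of that list. Among 12 regulators of the exit from naive pluripotency, 2 rose and 5 fell in knockout, and 3 rose and 5 fell in wild type. Etv4, Rbpj, Jarid2 and Rest fell in each genotype, led by the Ets factor Etv4 at -2.04 in knockout and -2.30 in wild type.

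Knockout was next set against wild type on each day. At day 0, 0 of the 10 genes passed, beside 0.369% of all genes. Fgf5, Otx2, Pou3f1, Grhl2 and Sall2 nevertheless had both knockout libraries above both wild type libraries, a pattern held by 24.3% of all genes, and Zic2, Zic5 and Sox3 had both below, a pattern held by 25.5%. The 10 genes had a median log2 fold change of 0.30, beside 0.00 over all genes. The fold changes were 0.80 for Fgf5 (SE 0.26, limma adjusted p = 0.205), 0.77 for Otx2 (SE 0.28, adjusted p = 0.253), 0.62 for Grhl2 (SE 0.25, adjusted p = 0.298), 0.59 for Pou3f1 (SE 0.55, adjusted p = 0.675) and 0.54 for Sall2 (SE 0.28, adjusted p = 0.418). As ratios of group means, the knockout stood at 3.58 times the wild type for Fgf5, 1.78 for Otx2, 1.73 for Sall2, 1.65 for Pou3f1 and 1.64 for Grhl2. The Fgf5 ratio rests on low values, 2.30 and 0.902 FPKM in knockout against 0.276 and 0.619 FPKM in wild type. The spread of limma is shared by all days, and that of day 6 is wide. Without the libraries of day 6, an alternative added after the data were seen, Grhl2 (adjusted p = 0.0223) and Pou3f1 (adjusted p = 0.0395) passed at day 0, with 360 of all genes called in place of 46.

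Genes that Grhl2 is known to act on, with other epithelial genes, leaned the same way at day 0. Of 13 such genes 12 were higher in knockout and 2 rose, with a median log2 fold change of 0.70. Over all genes 0.369% were called, at a median of 0.00. On later days most of the list stayed higher in knockout, unlike Grhl2. The list had 11 genes higher in knockout at day 3 and 9 at day 6, whereas Grhl2 was at -0.18 and -0.59. Over time the list and Grhl2 moved alike after day 3. From day 3 to day 6, 10 of the 13 fell in knockout and 8 in wild type, beside 29.9% and 18.4% of all genes. Grhl2 was at -1.40 in knockout and -0.99 in wild type for that step. A part of Grhl2 in these values was not tested. The 2 genes that rose at day 0 were Cldn7 and Prss8. Cldn7, a tight junction claudin, averaged 18.0 ± 0.184 FPKM in knockout and 9.89 ± 2.05 FPKM in wild type libraries (SD, n = 2 each; log2 fold change 0.81, SE 0.13, limma adjusted p = 0.0455). Prss8, a membrane-anchored serine protease of epithelia, averaged 6.36 ± 0.229 FPKM in knockout and 3.44 ± 0.621 FPKM in wild type libraries (0.74, SE 0.10, limma adjusted p = 0.0257). Of the 13 naive genes 12 were lower in knockout at day 0, with a median of -0.34, and 0 passed. None of the 17 further formative and primed genes passed.

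The table of undifferentiated stem cells was read by condition only, since its 3 entries per condition could not be matched to the 2 labelled libraries of each genotype, and no test was made. Its values are given as lowest, median and highest entry and are not set against those of embryoid bodies. Cxxc5 stood at 4.85, 4.87 and 5.69 FPKM in knockout and at 23.2, 23.7 and 25.6 FPKM in wild type entries. The median was higher in knockout for 8 of the 10 genes, the exceptions being Sox3 and Tcf15.

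Otx2 stood at 11.9, 13.6 and 15.1 FPKM in knockout and at 7.71, 9.05 and 13.6 FPKM in wild type stem cells. Pou3f1 stood at 7.99, 9.20 and 10.5 FPKM in knockout and at 4.21, 4.90 and 9.91 FPKM in wild type. Grhl2 stood at 9.43, 9.71 and 10.1 FPKM in knockout and at 6.36, 6.83 and 9.64 FPKM in wild type. In these 3 genes 1 wild type entry reached into the knockout range. The same held for Fgf5, with 1.37, 1.95 and 2.16 FPKM in knockout and 0.324, 1.17 and 1.72 FPKM in wild type, and for Sall2, with 2.38, 2.65 and 3.59 FPKM in knockout and 1.59, 1.74 and 3.09 FPKM in wild type. Only Tcf15 had no overlap, at 43.2, 46.1 and 46.7 FPKM in knockout and 49.6, 58.2 and 59.0 FPKM in wild type. Over the 11133 genes with a mean of at least 1 FPKM in that table, 5.85% had all knockout entries below all wild type entries and 8.34% had all above. Zic2, Zic5, Sox3 and Wnt8a had overlapping entries and medians of 16.7, 8.55, 0.881 and 0.221 FPKM in knockout against 15.3, 8.39, 0.941 and 0.214 FPKM in wild type.

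**Figure D3:**
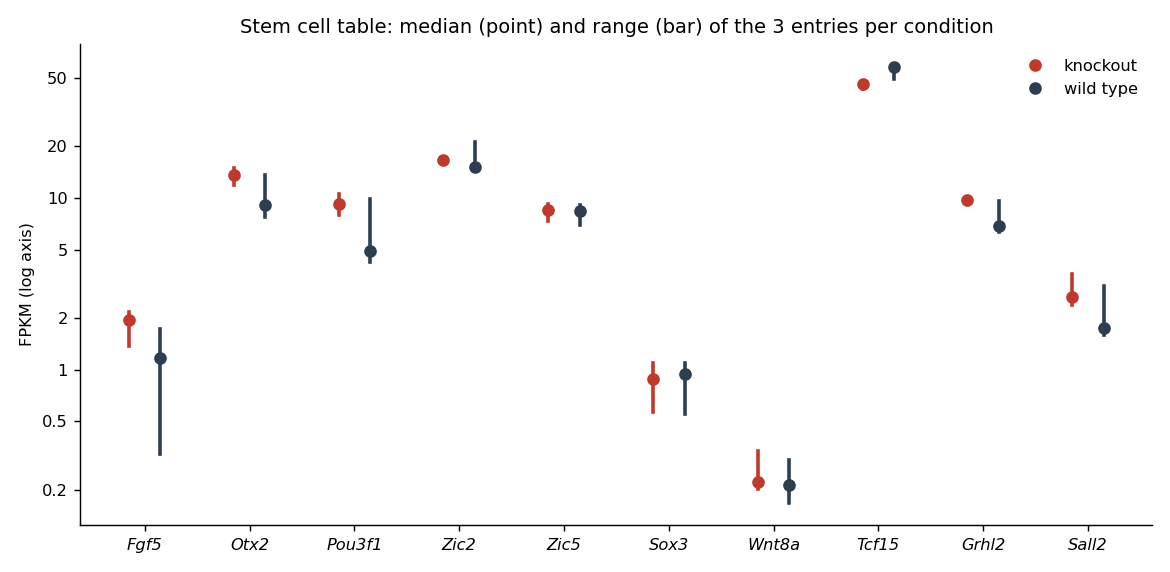
FPKM (log axis) of the 10 genes in the table of undifferentiated stem cells, as the median (point) and the lowest to highest value (bar) of the 3 entries of the knockout (red, left) and of the wild type (dark, right). The entries overlap for every gene except Tcf15, which reached 46.7 FPKM in knockout and began at 49.6 FPKM in wild type.

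At day 3 the genotypes were close. None of the 10 genes passed, beside 1.19% of all genes, and 0 had an unadjusted p under 0.05. The fold changes were below 0 for 9 genes, with a median of -0.18 beside 0.00 over all genes, and Wnt8a alone was higher, at 0.49 (SE 0.35, limma adjusted p = 0.545). Knockout libraries lay below wild type libraries without overlap for Fgf5, Pou3f1, Zic2, Zic5, Tcf15 and Grhl2, as for 31.3% of all genes, and above for Wnt8a, as for 29.0%. The epithelial claudin Cldn4 rose at 1.02 (SE 0.15, limma adjusted p = 0.0236) and the naive gene Dppa3, which protects DNA methylation in the early embryo, at 1.62 (SE 0.30, adjusted p = 0.0468). No further formative or primed gene passed.

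At day 6 all 10 genes were lower in knockout, and 3 of them fell, beside 34.1% of all genes called (16.2% fell). Otx2 averaged 24.4 ± 8.41 FPKM in knockout and 51.4 ± 18.9 FPKM in wild type embryoid bodies (SD, n = 2 each; log2 fold change -1.04, SE 0.28, limma adjusted p = 0.0227). Sox3 averaged 2.26 ± 1.40 FPKM in knockout and 6.55 ± 4.21 FPKM in wild type (-1.16, SE 0.39, limma adjusted p = 0.0499). Zic2 averaged 57.4 ± 18.3 FPKM in knockout and 86.1 ± 18.3 FPKM in wild type (-0.60, SE 0.20, limma adjusted p = 0.0477). In these 3 genes, and in Fgf5, both knockout libraries were below both wild type libraries, a pattern held by 29.3% of all genes. None of the 10 had both above, a pattern held by 34.4%.

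The other genes had fold changes of the same sign that did not pass. They were -1.37 for Pou3f1 (SE 0.55, limma adjusted p = 0.0826), -0.63 for Fgf5 (SE 0.26, adjusted p = 0.0917), -0.59 for Grhl2 (SE 0.25, adjusted p = 0.0986), -0.63 for Sall2 (SE 0.28, adjusted p = 0.11), -0.71 for Tcf15 (SE 0.45, adjusted p = 0.242), -0.25 for Zic5 (SE 0.29, adjusted p = 0.524) and -0.19 for Wnt8a (SE 0.35, adjusted p = 0.687). The median of the 10 genes was -0.63, beside 0.02 over all genes. The calls rest on single libraries. They also rest on an SE whose spread is shared by all days, whereas replicates of the 10 genes lay farthest apart at day 6. The SE may therefore be too small on that day. Zic2 and Sox3 did not pass when any 1 of the 8 libraries of days 0 and 3 was left out, at adjusted p from 0.067 to 0.0789 with the same fold changes. Over 18 alternative fits Otx2 passed in 15, Zic2 in 4 and Sox3 in 3. None of the 10 passed without knockout replicate 2 or without wild type replicate 1 of day 6, 5 passed without knockout replicate 1, and 7 passed without wild type replicate 2. None passed when only the libraries of day 6 were fitted, with adjusted p of 0.188 for Otx2, 0.262 for Sox3 and 0.263 for Zic2.

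**Figure D4:**
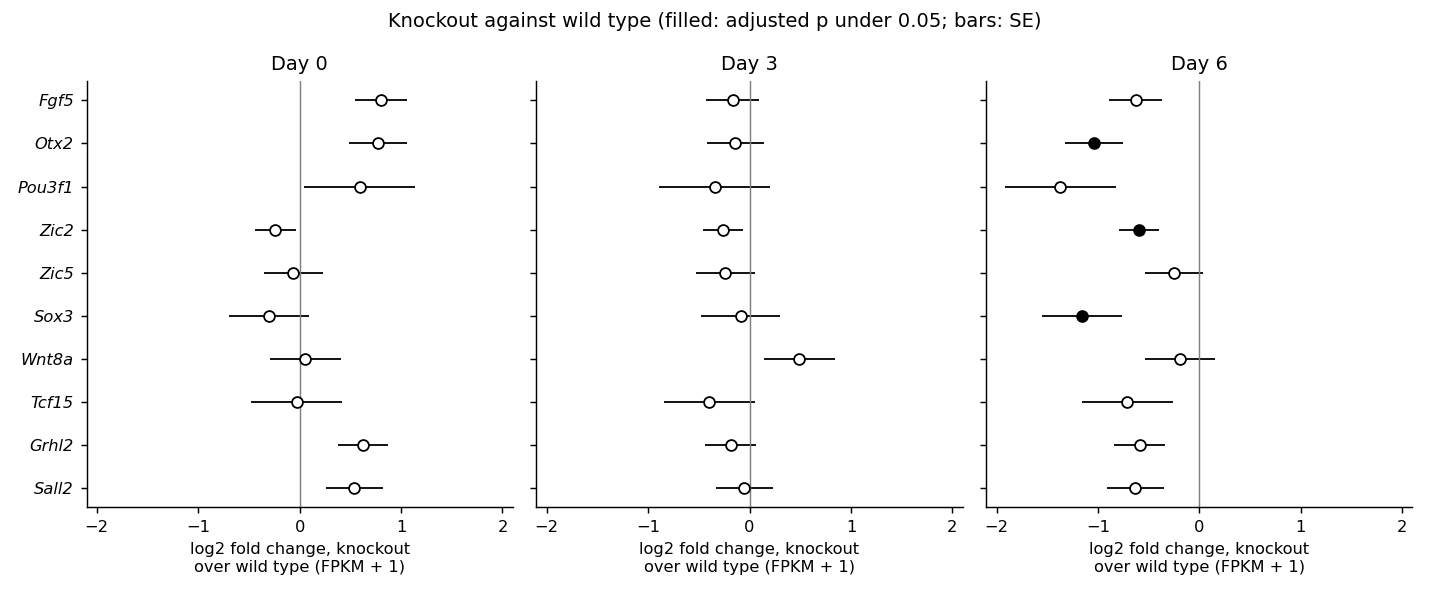
Log2 fold change of knockout over wild type, on the log2(FPKM + 1) scale, for each gene at days 0, 3 and 6 (panels, left to right), with the SE from limma as bars and filled points for an adjusted p under 0.05. Fgf5 ran from 0.80 at day 0 to -0.63 at day 6, and Otx2 from 0.77 to -1.04; all 10 points of day 6 lie left of 0.

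The calls on further lists at day 6 use the SE shared by all days, and they were not checked in the alternative fits. Further genes of the epiblast were divided at day 6. Of the 17 tested, 3 rose and 3 fell, a share near the 34.1% called over all genes (17.9% rose and 16.2% fell). Pim2 at -1.72 (SE 0.53, limma adjusted p = 0.0348), the Let-7 inhibitor Lin28b at -0.76 (SE 0.10, adjusted p = 0.00103) and the SoxC factor Sox11 at -0.65 (SE 0.07, adjusted p = 0.000511) fell. The keratin Krt18 rose at 1.69 (SE 0.34, adjusted p = 0.00777), as did Lef1 and Nkx1-2. Of 12 regulators of the exit to formative pluripotency, 4 fell and 0 rose, beside 34.1% of all genes called and 16.2% that fell. Among them were Zfp281 at -0.65 (SE 0.13, limma adjusted p = 0.00668), the Notch effector Rbpj at -0.47 (SE 0.10, adjusted p = 0.0102) and Lin28a at -0.31 (SE 0.06, adjusted p = 0.00667). Sox2, the relative of Sox3, fell at -1.36 (SE 0.46, adjusted p = 0.0485), with Sall4 rising at 0.29 (SE 0.09, adjusted p = 0.0341) among 5 general pluripotency genes. Of 13 epithelial genes, Cldn4 (0.85) and Prss8 (0.37) rose, 4 were lower in knockout and the median was 0.10. Of 13 naive genes, Tbx3 (2.35) and Klf5 (0.50), both also used outside naive cells, rose, whereas 9 were lower in knockout and the median was -0.31.

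Between day 3 and day 6, 7 of the 10 genes fell in knockout, beside 59.1% of all genes changed (29.9% fell). In wild type 2 fell and 1 rose, beside 35.9% of all genes changed (18.4% fell and 17.4% rose). The median log2 fold change of the 10 genes was -1.08 in knockout and -0.43 in wild type, beside 0.00 in knockout and -0.01 in wild type over all genes. Tcf15 and Grhl2 fell in each genotype. Tcf15 fell by 1.79 in knockout (SE 0.45, limma adjusted p = 0.00861) and by 1.47 in wild type (SE 0.45, adjusted p = 0.0334) on the log2 scale, and Grhl2 by 1.40 in knockout (SE 0.25, adjusted p = 0.00167) and by 0.99 in wild type (SE 0.25, adjusted p = 0.0173).

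Pou3f1 fell by 2.11 (SE 0.55, limma adjusted p = 0.00993), Sox3 by 1.87 (SE 0.39, adjusted p = 0.0036), Otx2 by 1.14 (SE 0.28, adjusted p = 0.00787), Sall2 by 1.02 (SE 0.28, adjusted p = 0.013) and Fgf5 by 0.89 (SE 0.26, adjusted p = 0.0172) in knockout on the log2 scale. The wild type values of those genes were -1.08, -0.80, -0.24, -0.44 and -0.42 in the same order, and none passed. Wnt8a was the only gene higher at day 6 than at day 3, at 0.49 in knockout (SE 0.35, limma adjusted p = 0.247) and with a rise of 1.18 in wild type (SE 0.35, adjusted p = 0.0297). In knockout, without replicate 2 of day 6 only Sox3 and Grhl2 fell and Wnt8a rose (1.11, adjusted p = 0.00796). Without replicate 1 of day 3, Sox3, Tcf15 and Grhl2 fell, and 9 genes fell without replicate 1 of day 6. The wild type count was 0 without replicate 2 of day 6 or without either replicate of day 3, 6 without replicate 1 of day 6, and 0 when only the groups compared were fitted. Pou3f1 in knockout had an adjusted p of 0.0617 in that last fit.

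A passing test in one genotype and not the other does not show a difference, so the difference was tested. For the step from day 3 to day 6, 0 of 10 interactions passed, beside 4.51% of all genes, and 0 of 10 had an unadjusted p under 0.05, beside 25.2% of all genes. All 10 were below 0, at a median of -0.52 beside 0.00 over all genes. Over the whole course from day 0 to day 6, a contrast added after the data were seen, 2 of 10 passed, beside 12.2% of all genes (6.90% below 0). These were Otx2 at -1.81 (SE 0.40, limma adjusted p = 0.0263) and Fgf5 at -1.43 (SE 0.37, adjusted p = 0.0411). Grhl2 at -1.21 (adjusted p = 0.0577), Sall2 at -1.17 (adjusted p = 0.0841) and Pou3f1 at -1.96 (adjusted p = 0.122) did not pass, and all 10 were below 0 with a median of -1.01 beside 0.02 over all genes. Otx2 and Fgf5 both ended at day 6 above their level of day 0 in wild type, by a wider margin than in knockout, where Otx2 had 30.3 and 18.4 FPKM at day 6 against 21.8 and 16.6 FPKM at day 0. Leaving out 1 of the 12 libraries at a time gave a count of 0 in 7 cases: without knockout replicate 2 or wild type replicate 1 of day 6, without either knockout library of day 3, without either wild type library of day 0, and without knockout replicate 1 of day 0. The count was 7 without wild type replicate 2 of day 6 and 4 without knockout replicate 1 of day 6.

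The 4 libraries of day 6 differed within genotype as well as between. Replicate 1 exceeded replicate 2 for 10 of the 10 genes in knockout and for 9 in wild type. The labels do not say whether same-numbered libraries shared a batch, and this was not tested. Wild type replicate 1 held the highest value for 9 of the 10 genes, Wnt8a being highest in knockout replicate 1, and knockout replicate 2 held the lowest for all 10. Markers of other cell types also differed among these libraries, the neural sums in the direction of the 10 genes and the mesoderm sums in the opposite one. Summed over 12 neural genes the libraries held 62.5 and 35.4 FPKM in knockout and 121 and 76.5 FPKM in wild type. Over 8 genes of lateral and cardiac mesoderm they held 365 and 569.1 FPKM in knockout and 20.6 and 208.2 FPKM in wild type. Over 9 primitive streak genes they held 417.5 and 281.7 FPKM in knockout and 97.7 and 266 FPKM in wild type.

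Neural and mesodermal sums thus put the libraries in opposite orders, with knockout replicate 2 and wild type replicate 1 at the ends. Over all genes at day 6, 17.9% rose and 16.2% fell. Calls over all genes went from 4249 to 20 when only the libraries of day 6 were fitted. The marker calls below use the SE shared by all days, and they were not checked in the alternative fits. Of the neural list, 7 of 10 tested genes fell in knockout, led by the fatty acid binding protein Fabp7 at -1.85 (SE 0.26, limma adjusted p = 0.00178) and the SoxB1 factor Sox1 at -1.79 (SE 0.60, adjusted p = 0.0483). Of the mesoderm list, 7 of 8 rose, led by the cardiac factor Hand1 at 3.44 (SE 1.08, limma adjusted p = 0.0379) and the forkhead factor Foxf1 at 3.09 (SE 0.95, adjusted p = 0.0352). In the streak list 4 of 8 rose, led by Mesp1 at 2.42 (SE 0.76, adjusted p = 0.0393) and Mixl1 at 1.29 (SE 0.41, adjusted p = 0.039). Feeder fibroblast genes summed to 18.7 and 33.0 FPKM in knockout and 10.8 and 16.4 FPKM in wild type over 10 genes, of which 2 of 6 tested rose. No marker of these 4 lists was at 0 in any library of day 6. Otx2, Sox3, Zic2 and Pou3f1 are also expressed in neural tissue, and the part of the other cell types in the differences of day 6 was not tested.

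**Figure D5:**
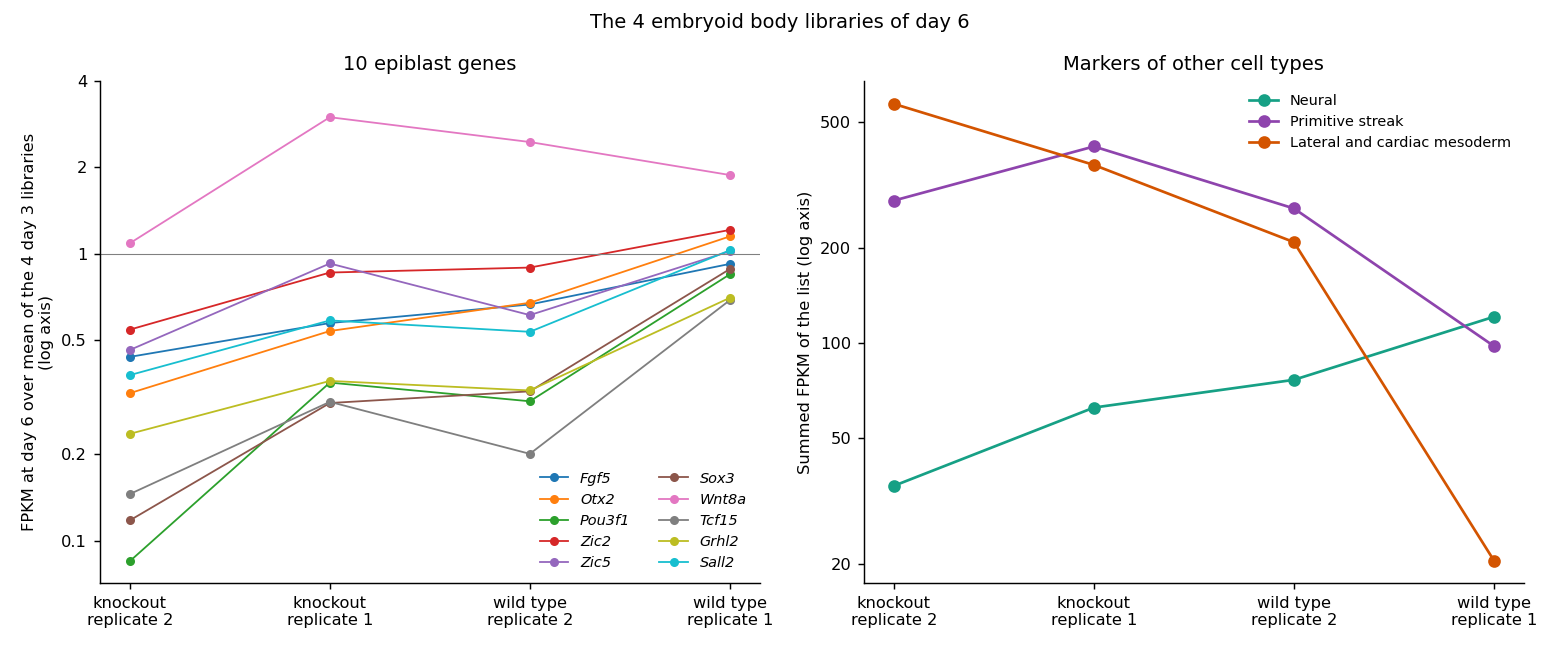
The 4 libraries of day 6, knockout left and wild type right. The left panel gives each gene as a ratio to its mean over the 4 libraries of day 3 (log axis, line at 1), and the right panel the summed FPKM of neural, primitive streak and lateral and cardiac mesoderm markers (log axis); knockout replicate 2 is lowest for all 10 genes and highest for mesoderm, at 569.1 FPKM.

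At day 0 the mesoderm and neural sums of the genotypes overlapped. At day 3 the mesoderm and primitive streak sums were small and were higher in knockout. Mesoderm genes summed to 29.7 and 34.1 FPKM in knockout and 36.6 and 27.7 FPKM in wild type at day 0, and to 7.66 and 8.70 FPKM in knockout and 6.48 and 6.36 FPKM in wild type at day 3. Neural genes summed to 75.0 and 78.8 FPKM in knockout and 73.7 and 94.5 FPKM in wild type at day 0. Primitive streak genes summed to 17.1 and 18.6 FPKM in knockout and 9.03 and 10.3 FPKM in wild type at day 3. Of 8 tested, 7 were higher in knockout and 0 passed between genotypes at day 3, beside 1.19% of all genes. From day 0 to day 3, 3 of the 8 (T, Eomes and Gsc) rose in knockout and 0 in wild type. Over all genes 24.6% rose in knockout and 25.5% in wild type in that step.

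The genes whose pattern over the 12 libraries was most like that of each of the 10 were found by the root mean square difference of centred log2(FPKM + 1) values, a description over libraries that share cultures and scaling. Otx2 was nearest to Dnmt3b (0.174) and to Jakmip2 (0.196). Dnmt3b averaged 108, 332 and 176 FPKM in knockout and 74.9, 379 and 288 FPKM in wild type at days 0, 3 and 6, so that it too was higher in knockout at day 0 and lower at day 6. Fgf5 was nearest to the kinesin gene Kif1a (0.457) and then to Sall2 (0.562). Sall2 itself was nearest to Zfp608 (0.262) and the semaphorin gene Sema6a (0.277). Pou3f1 was nearest to the forkhead gene Foxi3 (0.244) and to Acsl4 (0.357), and Sox3 to Mmp25 (0.336) and Calcr (0.349). Pou3f1 and Sox3 were each other's nearest among the 10 (0.406). Zic2 was nearest to Arnt2 (0.116) and H2-Q7 (0.143), and Zic5 to Kcnh2 (0.157) and Dtnb (0.158). Zic5 was not near Zic2 or any other of the 10. The least distant of them was Grhl2 (0.451), at rank 5962 among all tested genes. That distance exceeds the root mean square of Zic5 around its own mean, 0.345. Tcf15 was nearest to Chchd10 (0.203) and Dmrt1 (0.238), which also declined from day 0 to day 6 in mean level. Chchd10 averaged 164, 107 and 31.2 FPKM in knockout and 209, 121 and 51.1 FPKM in wild type on those days. Grhl2 was nearest to Fgd4 (0.188) and Tor3a (0.204), and Wnt8a to Rtn4rl2 (0.323) and the collagen gene Col2a1 (0.323).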

How the data were processed

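RNA sequencing of 12 embryoid body libraries and of undifferentiated stem cells was used as FPKM values that the authors deposited. Per the labels, trimming used Trim Galore 0.4.1 and mapping to mm10 used TopHat2 2.0.13. The submitters' processing notes also name HTSeq 0.6.1, Cufflinks 2.2.1 and Cuffdiff without tying any of them to these values. The labels give neither gene annotation nor strand setting. Median log2 ratios to the geometric mean spanned 0.0069 between libraries, so values were already scaled to each other, and 92 spike-in RNAs were at 0. Of the 24458 genes, 12472 averaged 1 FPKM or more and were tested on log2(FPKM + 1) with limma 3.58.1 in R 4.3.3 (1 mean per genotype and day, variance trend, Benjamini-Hochberg adjustment, threshold 0.05). The procedure was also run on simulated data in which a gene had the same spread in every library. That run cannot show how the calls fare with the wider spread of day 6. Low values were not whole reads closely enough for a count test, 73.5 to 76.6% lying within 0.1 of a whole read over 3035 single-transcript genes. Those genes gave the depth estimates.

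Knockout was set against wild type within each day, each genotype was followed over its steps to day 3 and to day 6, and interactions of genotype with day were tested. The 10 genes and all further lists were chosen with earlier results of these data known, so no p was adjusted over a list. From each list at most the 4 called genes of largest change per contrast were given with values. Replicate numbers were not taken to pair libraries, because the labels tie no number to a line and same-numbered libraries of a genotype correlated at -0.0807 to 0.0755 in their deviations between days. Same-numbered knockout and wild type libraries correlated at 0.0274, 0.0834 and 0.243 at days 0, 3 and 6. The stem cell table was not tested. ChIP-seq libraries were not analysed here.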

Additional observations from a re-analysis of the deposited data

Results flagged for a closer look

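For Otx2 the change from day 0 to day 6 differed between genotypes, with an interaction of -1.81 on the log2(FPKM + 1) scale (limma, Benjamini-Hochberg adjusted p = 0.0263, range 0.00682 to 0.103 over its alternatives). Its knockout libraries held 30.3 and 18.4 FPKM at day 6 against 21.8 and 16.6 FPKM at day 0, and its wild type libraries held 64.7 and 38.0 FPKM at day 6 against 9.68 and 11.9 FPKM at day 0. For Fgf5 the same interaction was -1.43 (adjusted p = 0.0411, range 0.0228 to 0.13 over its alternatives), with 32.4 and 24.7 FPKM at day 6 against 2.30 and 0.902 FPKM at day 0 in knockout, and 52.1 and 37.7 FPKM at day 6 against 0.276 and 0.619 FPKM at day 0 in wild type. The contrast was chosen after the data were seen, and the adjusted p passed in 10 of 19 alternatives for Otx2 and in 8 of 19 for Fgf5.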

How the results depend on the processing

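Over all other settings tried, no change of sign touched a gene that passed. Passing counts of the 10 genes moved as follows. For knockout against wild type at day 6 the count was 3 as reported, 1 with no filter on low values, 1 after quantile normalization, 1 with a robust spread and 0 with only the groups compared; Otx2 was the gene that still passed in those 3 fits with a count of 1. At day 0 it was 0 as reported and 2 without the libraries of day 6. For day 6 against day 3 in wild type it was 3, and 0 with only the groups compared. For the interaction from day 0 to day 6 it was 2, then 1 with no filter and 0 with only the groups compared. The cause of these moves was not tested. Fitting only the groups compared uses fewer samples, and it takes the spread from those groups instead of sharing it over all days.

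Over all genes, knockout against wild type at day 0 gave 46 calls, and 111 with a pseudocount of 0.1, 111 with a robust spread, 8 with only the groups compared and 360 without the libraries of day 6. At day 3 it gave 149, then 84 with no filter, 5 with only the groups compared and 545 without the libraries of day 6. At day 6 it gave 4249, and 20 with only the groups compared. Day 6 against day 3 in wild type gave 4476, and 16 with only the groups compared. The interaction from day 0 to day 3 gave 5, then 10 with a pseudocount of 0.1 and 9 with no filter. That from day 3 to day 6 gave 562, and 213 with only the groups compared, and that from day 0 to day 6 gave 1518 and 235.

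A replicate block by number, which the labels do not support as a pairing, left 20 calls over all genes at day 0 and raised the interaction from day 0 to day 6 to 4 of the 10 genes, adding Grhl2 (adjusted p = 0.0426) and Sall2 (adjusted p = 0.0385). A replicate block within genotype gave 1, 184 and 923 calls over all genes for the interactions from day 0 to day 3, day 3 to day 6 and day 0 to day 6. It ended the fall of Tcf15 in wild type after day 3 (adjusted p = 0.0538).

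Leaving out 1 library at a time, counts of the 10 genes ran from 0 to 7 for knockout against wild type at day 6, from 3 to 9 for day 6 against day 3 in knockout, from 0 to 6 in wild type, from 0 to 4 for the interaction from day 3 to day 6 and from 0 to 7 for that from day 0 to day 6. They ran from 6 to 8 in knockout and 7 to 9 in wild type for day 3 against day 0. Over all genes the count at day 6 ran from 2021 to 4868, at day 3 from 14 to 265 and at day 0 from 8 to 184. Log2 fold changes that crossed 0, none of them passing as reported, ran for knockout against wild type from -0.11 to 0.22 for Wnt8a and from -0.24 to 0.18 for Tcf15 at day 0, from -0.28 to 0.10 for Sox3 and from -0.16 to 0.058 for Sall2 at day 3, and from -0.71 to 0.21 for Zic5, from -0.81 to 0.42 for Wnt8a and from -1.49 to 0.070 for Tcf15 at day 6. Grhl2 in knockout ran from -0.024 to 0.083 for day 3 against day 0, and was -0.011 after quantile normalization. For day 6 against day 3, Zic5 ran from -0.90 to 0.020 and Wnt8a from -0.12 to 1.11 in knockout, while in wild type Otx2 ran from -0.62 to 0.13, Sall2 from -0.90 to 0.017 and Zic2 from -0.28 to 0.15, with 0.053 for Zic2 after quantile normalization. Interactions ran from -0.12 to 0.070 for Zic2 over days 0 to 3. Over days 3 to 6 they ran from -0.47 to 0.45 for Zic5, from -1.10 to 0.47 for Tcf15 and from -0.85 to 0.041 for Grhl2. Over days 0 to 6 they ran from -0.65 to 0.27 for Zic5, from -1.46 to 0.10 for Tcf15 and from -0.87 to 0.37 for Wnt8a. Depth limits Wnt8a and Sox3 at day 0, at an estimated 3.5 to 15.2 and 14 to 48.9 reads per library. Reads were not estimated for Fgf5, which was also low at day 0, at 0.276 and 0.619 FPKM in wild type. Those values enter its interaction from day 0 to day 6.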
